A study of Mus musculus with 12 samples.

Results

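The genes described here encode synaptic adhesion and organizer proteins, which span the cleft between neurons and recruit the machinery on either side of a synapse. A list of 44 mouse genes was used, in 13 families, and all 44 were found among the 24209 gene symbols of the table. They occupied 71 of its 32850 RefSeq transcript entries, and entries of the same symbol were summed. The mice were C57BL/6 males injected in both hippocampi at 10 weeks of age with AAV5 vectors that express under the synapsin promoter, which is active in neurons. GFP-miR-9sp and GFP-miR-34sp mice received a sponge, an RNA with 8 imperfect binding sites that occupies the named miRNA, together with GFP, and GFP Ctrl mice received the vector with GFP alone. The miR-9 experiment held 3 mice with the miR-9 sponge beside 3 GFP Ctrl animals, and the miR-34 experiment 3 mice with the miR-34 sponge beside a separate set of 3 GFP Ctrl animals, all taken 10 weeks after injection. The question was whether transcripts of the adhesion genes differed between each sponge and the GFP Ctrl mice of the same experiment.

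As background, neurexins are presynaptic receptors that bind neuroligins and LRRTM proteins on the postsynaptic side. The LAR-type receptor phosphatases (Ptprd, Ptprf and Ptprs) are presynaptic hubs that bind SLITRK proteins, Il1rapl1 and the netrin-G ligand family member Lrrc4b, and latrophilins (Adgrl genes) bind teneurins and FLRT proteins. Contactins and contactin-associated proteins act mainly on axons, and SynCAM proteins (Cadm genes) bind each other across the cleft.

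A sponge acts through the miRNA seed, bases 2 to 8 of the mature sequence, which pair with heptamers in 3′ UTRs. The mature sequences show what the sponges were directed at, with the seed in capitals. They are the RefSeq sequences on GRCm38.p6, and miR-34a and miR-34b share 1 seed. A further member of the miR-34 family, miR-34c, was not in the sequence source used and is not shown.
mmu-miR-9-5p: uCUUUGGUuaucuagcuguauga
mmu-miR-34a-5p: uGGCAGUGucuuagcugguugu
mmu-miR-34b-5p: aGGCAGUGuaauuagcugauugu

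The heptamers searched were ACCAAAG for miR-9 and CACTGCC for miR-34, on the transcribed strand of every gene's longest annotated 3′ UTR (GENCODE M1). The miR-9 heptamer was present in 13 of 44 adhesion genes (29.5%) against 11.4% of 19915 genes with a 3′ UTR. The miR-34 heptamer was present in 11 of 44 (25%) against 13.99% of all genes. The 3′ UTRs of the adhesion genes were longer, with a median of 1995 bases against 893 bases over all genes. An 8mer, the heptamer followed by A, was present for miR-9 in 3 adhesion genes, Lrrtm4, Cntn2 and Tenm1, and for miR-34 in 5, Nlgn2, Flrt2, Cntn2, Cntnap2 and Cadm3. Over all genes, 3.75% held the miR-9 8mer and 4.89% the miR-34 8mer. Windows of 30 bases of the 3′ UTR are shown for these 8mers and for the heptamers of Cntnap1 and Ptprs, the genes that held a match to the miRNA whose sponge gave them an unadjusted p under 0.05, with the match in capitals and coordinates of the window on NCBIM37 (mm9).
Lrrtm4, miR-9, chr6:79973740-79973769, plus strand: tgatgatttaaACCAAAGAgcatttgaccc
Cntn2, miR-9, chr1:134406787-134406816, minus strand: cttgctaagagACCAAAGAgaaaaacacca
Tenm1, miR-9, chrX:39885598-39885627, minus strand: gcctttgcgtcACCAAAGActgcctgtttt
Cntnap1, miR-9, chr11:101051120-101051149, plus strand: ctacagatgggACCAAAGggagtggccgag
Cntnap1, miR-34, chr11:101051142-101051171, plus strand: tggccgagcctCACTGCCtaaaccaatgcc
Ptprs, miR-34, chr17:56552239-56552268, minus strand: cacatgcccgaCACTGCCcccatccccatg
Nlgn2, miR-34, chr11:69640406-69640435, minus strand: ctttctaccacCACTGCCAggcagagggcc
Flrt2, miR-34, chr12:97022165-97022194, plus strand: tttcacttaaaCACTGCCAtatgcactgga
Cntn2, miR-34, chr1:134411733-134411762, minus strand: ccacaagtgggCACTGCCAtctctcatctc
Cntn2, miR-34, chr1:134411427-134411456, minus strand: ctctcagccagCACTGCCAtccctgccatc
Cntnap2, miR-34, chr6:47249700-47249729, plus strand: catgtgggagaCACTGCCAtattttaaacc
Cadm3, miR-34, chr1:175266604-175266633, minus strand: gatgggtgtcaCACTGCCAcctctcttcca
In Cntnap1 the miR-9 match began at base 158 of a 3′ UTR of 1065 bases and the miR-34 match at base 180. Cntn2 held 5 matches to the miR-34 heptamer, 2 of them 8mers, in a 3′ UTR of 6109 bases. A match describes the letters of the window only.

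Between 17279620 and 24428477 reads per mouse were counted in the miR-9 experiment and between 11029604 and 16934133 in the miR-34 experiment. The adhesion genes took 0.609% to 0.678% of them. The labels name the cells as hippocampal neurons, whereas the methods describe whole hippocampi, and markers of other cells were present. Summed counts per 1000000 counted reads (CPM) were 3185 to 4266 for the list of neuronal markers and 2672 to 3011 for the list of astrocyte markers. In such tissue, fewer cells of a type and less RNA per cell cannot be told apart.

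The number of reads that a gene received differed with its number of RefSeq entries. Of entries that were the only one of their gene, 17.4% had 0 reads in all 12 mice. The share was 43.2% for genes with 2 entries, 59.9% for genes with 3 and 72.8% for genes with 4 or more. The median level of a gene was 1.31 reads per kilobase of transcript and 1000000 counted reads (RPKM) for genes with 1 entry and 0.0268 for genes with 4 or more. Of the adhesion genes, 28 had 1 entry, with a median level of 29.1, and 16 had 2 to 4 entries, with a median level of 1.26. Of the 71 entries of adhesion genes, 18 had 0 reads in all mice. Levels were therefore compared between genes only among the 28 with 1 entry, and a value of the other 16 covers the reads given to the entries that were counted. How reads shared by several entries were treated is not given in the sources used here.

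**Figure D1:**
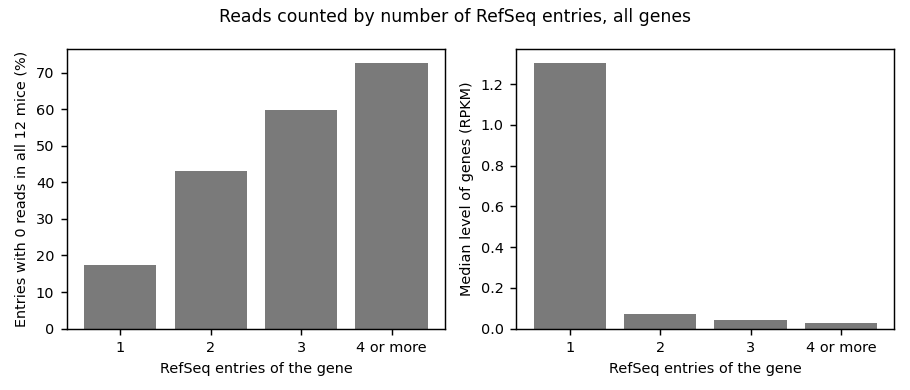
Share of RefSeq entries with 0 reads in all 12 mice (left, percent) and median level of genes (right, RPKM), by the number of RefSeq entries of the gene, over all genes of the table. The share rises from 17.4% to 72.8% and the median level falls from 1.31 to 0.0268 between 1 entry and 4 or more.

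The most abundant adhesion gene was Cadm3, a SynCAM protein, at a mean of 175 RPKM over the 12 mice, and from 153 to 192 in single mice. The netrin-G ligand Lrrc4b followed at 139.9, with 127 to 151 in single mice. The latrophilin Adgrl1 was at 117.03, with 113 to 122, the narrowest relative range of these. The SynCAM gene Cadm4 was at 105, with 99.8 to 116, and Nlgn2, the neuroligin of inhibitory synapses, was at 89.5, with 81.8 to 98.9. The ranges of neighbours in this order overlapped for Adgrl1 with Cadm4 only, and the other neighbours among these 5 did not overlap over the 12 mice. At the lower end of the genes with 1 entry were Tenm1 (7.73), Cntn6 (4.21) and Il1rapl1 (3.54, with 2.71 to 3.95 in single mice), the last a receptor accessory protein that binds Ptprd. The Il1rapl1 entry has 2739 bases, fewer than the 6372 bases of its longest annotated 3′ UTR, so its level and its place describe that entry only.

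The 5 genes with the fewest reads for their length each had several entries, so these values do not place them in the order of levels. Cadm1 had 4 entries and 0 reads in every mouse, against a limit of 3 reads in a mouse's total, which covers counting error only. Lrrc4c had 5 reads, Tenm3 21 reads, Cadm2 44 reads and Slitrk2 137 reads, each as the total over the 12 mice. By mouse, Slitrk2 ranged from 0.0471 to 0.141 RPKM, Cadm2 from 0.00605 to 0.0622, and Tenm3 from 0 to 0.0238. Reads of Lrrc4c were found in 5 of the 12 mice, 1 read in each. Cadm1, Cadm2, Lrrc4c and Tenm3 were too low to be tested in either experiment, and Slitrk2 was too low in the miR-34 experiment.

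**Figure D2:**
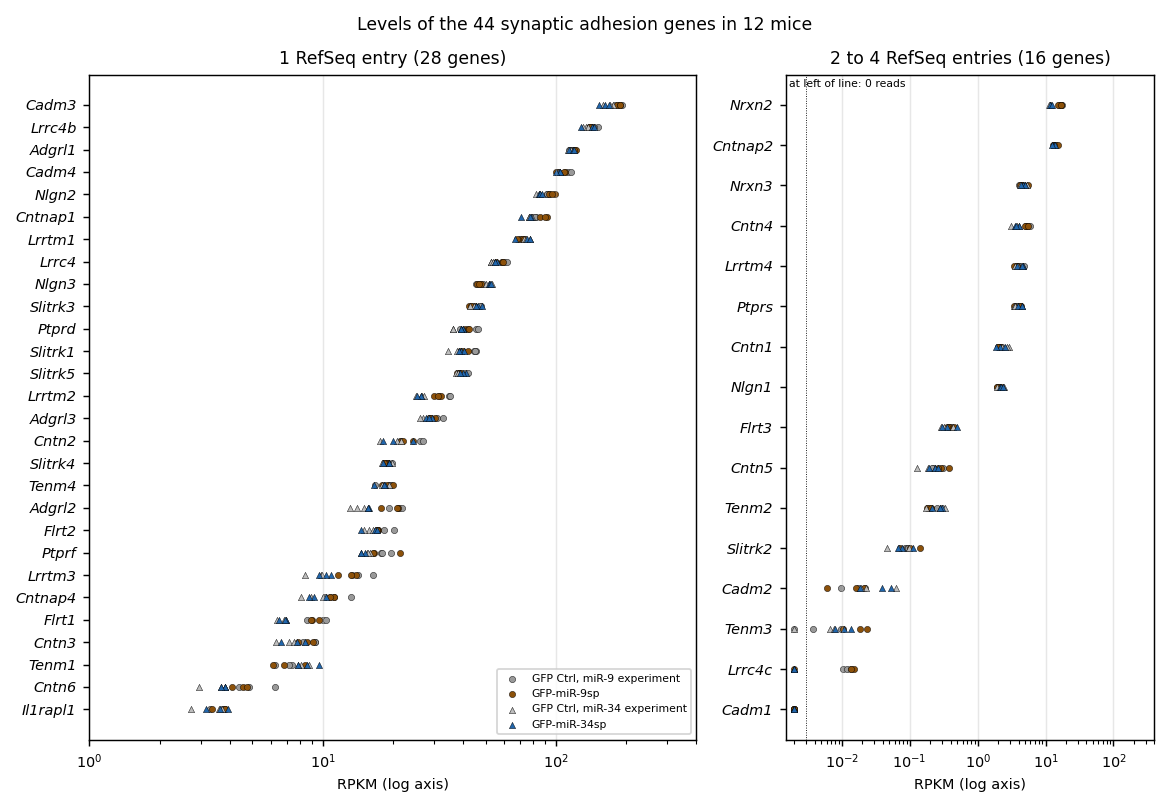
Level of each of the 44 genes in each of the 12 mice (RPKM, log axis), for genes with 1 RefSeq entry (left) and with 2 to 4 entries (right). Circles are mice of the miR-9 experiment, triangles mice of the miR-34 experiment, grey GFP Ctrl and coloured sponge, and points left of the dotted line have 0 reads. Genes with 1 entry run from 3.54 (Il1rapl1) to 175 (Cadm3), and Cadm1 has 0 reads in every mouse.

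After miR-9sp, no adhesion gene passed an adjusted p of 0.05 in edgeR, of 40 tested, and none of the 13045 genes tested did so (0%). DESeq2 called 2 genes of the table and 0 adhesion genes. The adjusted p is corrected over all genes tested, and values per mouse are given as scaled reads, counts brought to the mean library size of the experiment with TMM normalisation. The 40 genes had 16 positive and 24 negative values, where 49.7% of all genes tested were positive. The median log2 fold change of the 40 was -0.035, against a median of -0.0006 over all genes. With 1 mouse left out the median ran from -0.045 to -0.0032, and it was -0.020 without GFP-miR-9sp mouse 17, -0.018 without GFP Ctrl mouse 16 and -0.0032 without GFP Ctrl mouse 8. With scaling by total counts it was -0.057, where that of all genes was -0.022. An unadjusted p under 0.05 was found for 3 of the 40 (Cntnap1 and Adgrl1 higher, Slitrk1 lower), and for 4.73% of all genes (2.47% higher and 2.26% lower). The 3 sponge mice lay entirely above or below the 3 GFP Ctrl mice in 5 of the 40, against 10.2% of all genes. Of these, 3 were higher (Cntnap1, Adgrl1 and Nlgn2, against 5.21% of all genes) and 2 lower (Slitrk1 and Lrrtm4, against 5.02%).

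Cntnap1, a contactin-associated protein of the axon known from the paranodes of myelinated fibres, had 8462, 8785 and 8719 scaled reads in the GFP Ctrl mice and 9224, 10168 and 9753 in the GFP-miR-9sp mice. All sponge mice were above all GFP Ctrl mice. The ratio was 1.12 with a 95% interval of 1.048 to 1.202 (log2 fold change 0.17 ± 0.044 SE), with an unadjusted edgeR p of 0.0038 and an adjusted p of 0.97. Slitrk1, a postsynaptic ligand of LAR-type phosphatases, had 3881, 3793 and 3816 scaled reads in the GFP Ctrl mice and 3312, 3524 and 3616 after miR-9sp. All sponge mice were below. The ratio was 0.910 with a 95% interval of 0.852 to 0.971 (log2 fold change -0.14 ± 0.042 SE), with an unadjusted edgeR p of 0.0089 and an adjusted p of 0.97. The latrophilin Adgrl1 had 19392, 18545 and 18948 scaled reads in the GFP Ctrl mice and 19879, 20711 and 19743 after miR-9sp, a ratio of 1.06 (log2 fold change 0.085 ± 0.038 SE), with an unadjusted edgeR p of 0.049 and an adjusted p of 0.97, and the unadjusted p was above 0.05 in 10 of 11 alternatives. Without 1 mouse the number of adhesion genes with an unadjusted p under 0.05 ran from 2 to 8. It was 6 without GFP-miR-9sp mouse 23 (3 higher and 3 lower), where 340 of 13124 genes of the table were higher and 330 lower. Without GFP Ctrl mouse 2 it was 8 (1 higher and 7 lower), where 394 of 13016 genes were higher and 374 lower. With scaling by total counts alone it was 5 (1 higher and 4 lower). Under that scaling 190 genes of the table were higher and 484 lower, against 322 and 295 with TMM.

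The neuroligins, postsynaptic receptors of neurexins, all had positive values after miR-9sp, although Nlgn3 turned negative when the counts were scaled by their totals. Nlgn2 had 9398, 9133 and 9193 scaled reads in the GFP Ctrl mice and 9921, 9655 and 9727 after miR-9sp (log2 fold change 0.080 ± 0.036 SE, edgeR adjusted p = 0.97). These groups did not overlap. Nlgn1, the neuroligin of excitatory synapses, had 222, 230 and 231 scaled reads in the GFP Ctrl mice and 218, 261 and 221 after miR-9sp (log2 fold change 0.032 ± 0.092 SE). Nlgn3 had 3794, 3659 and 3517 against 3576, 3833 and 3678 (log2 fold change 0.015 ± 0.044 SE). For Nlgn1 and Nlgn3 the sponge and GFP Ctrl mice overlapped.

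The neurexins also overlapped between the groups. Nrxn2 had 2218, 2330 and 2132 scaled reads in the GFP Ctrl mice and 2223, 2077 and 2296 after miR-9sp (log2 fold change -0.018 ± 0.049 SE). Nrxn3 had 731, 653 and 718 against 692, 890 and 681 (log2 fold change 0.10 ± 0.098 SE), and the high value belonged to mouse 23.

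Among the other postsynaptic families, 3 of 4 LRRTM genes and 4 of 5 SLITRK genes had negative values after miR-9sp (4 of 4 LRRTM genes when scaled by total counts, since Lrrtm1 changed sign), with Slitrk1 the only one of them at an unadjusted p under 0.05. Lrrtm4 had 301, 344 and 291 scaled reads in the GFP Ctrl mice and 250, 288 and 281 after miR-9sp (log2 fold change -0.19 ± 0.092 SE, edgeR adjusted p = 0.97). Its sponge mice were all below its GFP Ctrl mice. On the axonal side, 5 of 6 contactins had negative values and none had an unadjusted p under 0.05. The largest log2 fold change belonged to Cntn5, at 26.3, 18.6 and 17.9 scaled reads in the GFP Ctrl mice and 24.6, 22.7 and 32.8 after miR-9sp (0.34 ± 0.25 SE, edgeR adjusted p = 0.97). The smallest belonged to Tenm2, at 58.3, 36.3 and 48.4 against 39.9, 35.9 and 41.2 (-0.29 ± 0.21 SE, edgeR adjusted p = 0.97). Both genes rest on few reads and their groups overlap.

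The precision of the fit set what could be seen. The 95% interval of the ratio lay between 1/1.2 and 1.2 for 27 of the 40 adhesion genes tested and for 22 of the 28 with 1 entry, against 52.9% and 57.9% of all genes. With 3 mice a side, exact permutation allows no p below 0.1 for a single gene, and none is given. In the same mice the 5 neuronal marker genes tested, of 6, all had positive values, with Slc17a7 at 0.13 ± 0.050 SE and Camk2a at 0.15 ± 0.061 SE (both with an unadjusted p under 0.05 and an adjusted p of 0.97). The summed list was at 3570 to 4042 CPM in the GFP Ctrl mice and 3978 to 4266 CPM after miR-9sp. The 5 dentate granule cell markers were also all positive (median log2 fold change 0.30), with 0 at an unadjusted p under 0.05. Their summed list was at 241 to 374 CPM in the GFP Ctrl mice and 275 to 441 CPM after miR-9sp. Of 7 interneuron markers 3 were positive and 4 negative, with 0 at an unadjusted p under 0.05. Of 7 microglia markers 1 was positive and 6 negative, with 1 lower at an unadjusted p under 0.05. The 3 thalamic marker genes tested, of 7, all had negative values, with a median log2 fold change of -0.31. Of these, 2 had an unadjusted p under 0.05 and 0 an adjusted p under 0.05. The summed thalamic list was at 82.6 to 118 CPM in the GFP Ctrl mice against 78.3 to 82.0 CPM after miR-9sp, and Tnnt1 was listed at 0. Choroid plexus markers varied within both groups, from 123 to 747 CPM in the GFP Ctrl mice and from 53.6 to 884 CPM after miR-9sp. The part of these markers in the values of the adhesion genes was not tested.

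After miR-34sp, no adhesion gene passed an adjusted p of 0.05 in edgeR, of 39 tested, and 8 of 12492 genes did so (0.064%). DESeq2 called 36 genes of the table and 0 adhesion genes. Of the 39, 28 had positive and 11 negative values, where 49.7% of all genes tested were positive. The median log2 fold change of the 39 was 0.041, against a median of -0.0007 over all genes. With 1 mouse left out the median ran from 0.016 to 0.054, and it was 0.023 without GFP Ctrl mouse 4 and 0.016 without GFP-miR-34sp mouse 18. Over single RefSeq entries it was 0.024. An unadjusted p under 0.05 was found for 3 of the 39 (Ptprs and Adgrl2 higher, Ptprf lower), and for 6.43% of all genes (2.71% higher and 3.72% lower). The groups did not overlap for 5 of the 39, against 11.6% of all genes. Of these, 4 were higher (Ptprs, Adgrl2, Lrrc4 and Nrxn2, against 5.8% of all genes) and 1 lower (Ptprf, against 5.76%).

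Of the LAR-type phosphatases, Ptprs had 313, 320 and 319 scaled reads in the GFP Ctrl mice and 407, 354 and 397 in the GFP-miR-34sp mice. All sponge mice were above all GFP Ctrl mice. The ratio was 1.22 with a 95% interval of 1.09 to 1.37 (log2 fold change 0.29 ± 0.073 SE), with an unadjusted edgeR p of 0.0021 and an adjusted p of 0.40. Of its 4 entries, NM_011218 held 5344 reads over the 12 mice, NM_001252456 held 14 and the other two held 0, so the value describes the reads given to 1 entry. Ptprf had 1604, 1555 and 1560 scaled reads in the GFP Ctrl mice and 1466, 1527 and 1441 after miR-34sp, a ratio of 0.939 with a 95% interval of 0.882 to 0.999 (log2 fold change -0.091 ± 0.041 SE), with an unadjusted edgeR p of 0.047 and an adjusted p of 0.77, and the unadjusted p was above 0.05 in 9 of 11 alternatives. Its sponge mice were all below its GFP Ctrl mice. Ptprd had a log2 fold change of 0.080 ± 0.044 SE (edgeR adjusted p = 0.83) and its groups overlapped.

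Of the latrophilins, Adgrl2 had 1041, 1191 and 1111 scaled reads in the GFP Ctrl mice and 1256, 1238 and 1223 after miR-34sp. All sponge mice were above. The ratio was 1.11 with a 95% interval of 1.03 to 1.21 (log2 fold change 0.16 ± 0.052 SE), with an unadjusted edgeR p of 0.013 and an adjusted p of 0.62. Without GFP Ctrl mouse 10 its unadjusted p was 0.063. The number of adhesion genes with an unadjusted p under 0.05 ran from 2 to 5 when 1 mouse was left out, and was 5 without GFP-miR-34sp mouse 18 and 5 without mouse 3. Without mouse 18, 312 of 12527 genes of the table were higher and 426 lower. Without mouse 3, 315 of 12483 were higher and 398 lower.

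The neuroligins had log2 fold changes close to 0 after miR-34sp. Nlgn2 had 5544, 5351 and 5601 scaled reads in the GFP Ctrl mice and 5558, 5606 and 5623 after miR-34sp (0.025 ± 0.034 SE). Nlgn3 had 2639, 2690 and 2540 against 2633, 2654 and 2637 (0.010 ± 0.036 SE), and Nlgn1 had 183, 175 and 140 against 159, 161 and 172 (-0.022 ± 0.12 SE). All 3 overlapped between the groups. Of the neurexins, Nrxn2 had 1006, 996 and 982 scaled reads in the GFP Ctrl mice and 1068, 1007 and 1060 after miR-34sp (0.072 ± 0.045 SE, edgeR adjusted p = 0.87), with all sponge mice above, the lowest of them by 1 scaled read. Nrxn3 had 557, 436 and 522 against 481, 524 and 445 (-0.070 ± 0.091 SE) and overlapped.

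All 4 SLITRK genes tested, all 3 FLRT genes and all 3 latrophilins had positive values after miR-34sp under each of the 3 scalings (TMM, DESeq2 size factors, total counts), with Adgrl2 the only one of them at an unadjusted p under 0.05. The scalings differed little in this experiment, so the shared sign adds no separate support. The smallest of these values was 0.0113, 0.0113 and 0.0149 under the 3 scalings, in that order. Positive values were found for 5 of 6 contactins, with none at an unadjusted p under 0.05. The 2 SynCAM genes tested were negative under each of the 3 scalings. Of 3 contactin-associated genes, 1 was positive and 2 negative with TMM. Of all genes tested, 49.7% had a positive value. Cntn5 again had the largest log2 fold change, at 10.6, 7.11 and 13.3 scaled reads in the GFP Ctrl mice and 13.2, 14.6 and 10.6 after miR-34sp (0.29 ± 0.33 SE, edgeR adjusted p = 0.94). The smallest belonged to Cntn1, a contactin of axons and glial contacts, at 220, 173 and 205 scaled reads against 163, 195 and 142 (-0.27 ± 0.13 SE, edgeR adjusted p = 0.79). Both overlapped between the groups.

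The 95% interval of the ratio lay between 1/1.2 and 1.2 for 26 of the 39 adhesion genes tested and for 23 of the 28 with 1 entry, against 49.6% and 54.2% of all genes. In these mice the 6 choroid plexus marker genes tested, of 8, were all lower after miR-34sp at an unadjusted p under 0.05, and 3 of them (Ttr, Aqp1 and Kcnj13) passed an adjusted p of 0.05 in edgeR. The summed list was at 645 to 2369 CPM in the GFP Ctrl mice and 72.1 to 150 after miR-34sp, with Folr1 listed at 0. Of 5 dentate granule cell markers, 4 were positive and 3 had an unadjusted p under 0.05 (median log2 fold change 0.24). Their summed list was at 321 to 424 CPM in the GFP Ctrl mice and 373 to 433 CPM after miR-34sp. Of 6 neuronal markers 5 were tested, with 1 positive and 4 negative values and 0 at an unadjusted p under 0.05. The summed neuronal list was at 3502 to 3565 CPM in the GFP Ctrl mice and 3185 to 3607 CPM after miR-34sp. The 5 astrocyte markers tested, of 6, were all negative, and Gfap had an unadjusted edgeR p of 0.0035 (-0.19 ± 0.053 SE, adjusted p = 0.46). The 5 oligodendrocyte markers tested, of 6, were all positive, with 0 at an unadjusted p under 0.05. Of 7 striatal markers, 6 were tested, with 4 negative and 2 positive values (Drd2 and Rgs9) and a median of -0.33. Of the negative ones, 3 had an unadjusted p under 0.05. For Adora2a, 1 of these 3, the GFP Ctrl mice had 29.7, 29.6 and 111 scaled reads against 27.9, 23.6 and 26.1. The summed striatal list was at 119 to 184 CPM in the GFP Ctrl mice and 105 to 121 CPM after miR-34sp. The choroid plexus and striatum lie outside the hippocampus, and the part of these markers in the values of the adhesion genes was not tested.

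**Figure D3:**
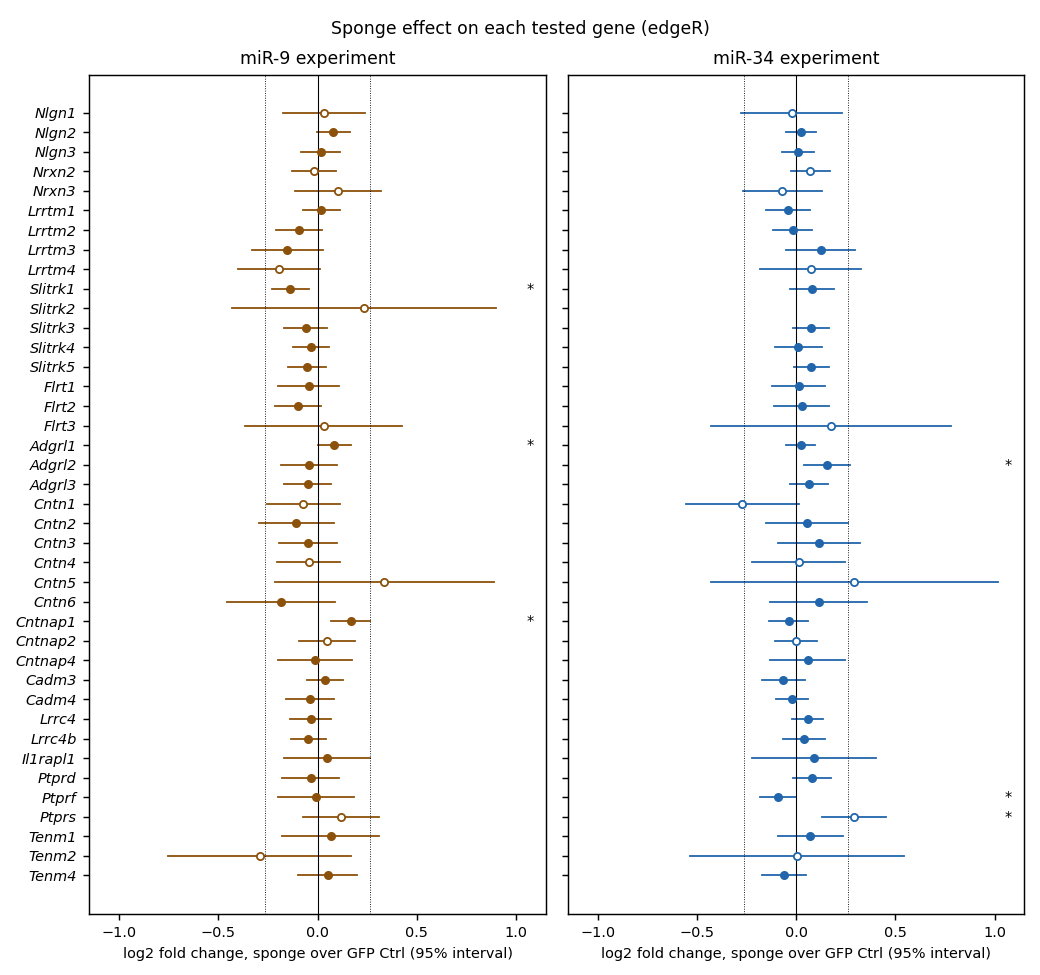
The log2 fold change of each tested adhesion gene, sponge over GFP Ctrl, with its 95% interval from edgeR (n = 3 mice against 3), in the miR-9 experiment (left) and the miR-34 experiment (right). Filled points are genes with 1 RefSeq entry, open points genes with more, dotted lines mark ratios of 1/1.2 and 1.2, and an asterisk an unadjusted p under 0.05. Most intervals lie between the dotted lines, 27 of 40 on the left and 26 of 39 on the right, and the widest belong to genes with few reads.

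The sponge effects were compared directly in 1 model of all 12 mice, as the effect of miR-9sp minus that of miR-34sp. No adhesion gene of 40 passed an adjusted p of 0.05, and none of 12835 genes did (0%), with 5 genes of the table and 0 adhesion genes in DESeq2. An unadjusted p under 0.05 was found for 5 of the 40 against 6.1% of all genes, with 1 value positive (3.55% of all genes) and 4 negative (2.55%). Slitrk1 had a difference of -0.22 ± 0.066 SE on the log2 scale, with an unadjusted edgeR p of 0.0054 and an adjusted p of 0.70. Cntnap1 had a difference of 0.21 ± 0.065 SE, with an unadjusted edgeR p of 0.0065 and an adjusted p of 0.70. The others were Slitrk5 (-0.13 ± 0.056 SE, adjusted p = 0.79), Lrrtm3 (-0.28 ± 0.13 SE, adjusted p = 0.80) and Adgrl2 (-0.20 ± 0.090 SE, adjusted p = 0.80). Without 1 mouse the number ran from 3 to 7, and it was 3 without GFP Ctrl mouse 4, GFP-miR-34sp mouse 13 or GFP-miR-34sp mouse 18. It was 7 without GFP-miR-34sp mouse 3, where 393 of 12862 genes of the table were higher and 281 lower.

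Neither of the genes that led this comparison separated from GFP Ctrl in the miR-34 experiment. Slitrk1 had 2186, 1920 and 2082 scaled reads in the GFP Ctrl mice of the miR-34 experiment and 2190, 2250 and 2109 after miR-34sp, and the groups overlapped. Cntnap1 had 5365, 5370 and 5520 against 5500, 5420 and 4921, also overlapping. Lrrtm3, a postsynaptic neurexin ligand, had 1095, 1032 and 1269 scaled reads against 1079, 931 and 1035 in the miR-9 experiment and 499, 422 and 501 against 548, 522 and 478 in the miR-34 experiment, GFP Ctrl first. It overlapped in both. Slitrk5 had 3910, 4042 and 3745 against 3637, 3830 and 3799 in the miR-9 experiment and 2398, 2340 and 2394 against 2602, 2517 and 2398 in the miR-34 experiment, where the lowest sponge mouse equalled the highest GFP Ctrl mouse to within 1 scaled read. Adgrl2 had 2576, 2334 and 2654 against 2565, 2229 and 2542 in the miR-9 experiment, where its groups overlapped.

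Of the 39 adhesion genes tested in both experiments, 20 had a negative value after miR-9sp and a positive value after miR-34sp (51.3%, against 25.8% of 12389 genes), 7 the reverse, 8 were positive in both and 4 negative in both. With scaling by total counts the first number was 21, and the matching share of all genes was not counted. In the miR-9 experiment this scaling put the median log2 fold change over all genes at -0.022, and in the miR-34 experiment at 0.0030. Both medians lie on the side of this sign pattern, so the 21 adds no separate support. The numbers given here are counts of signs, most of values within their error, and the experiments share no mice.

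**Figure D4:**
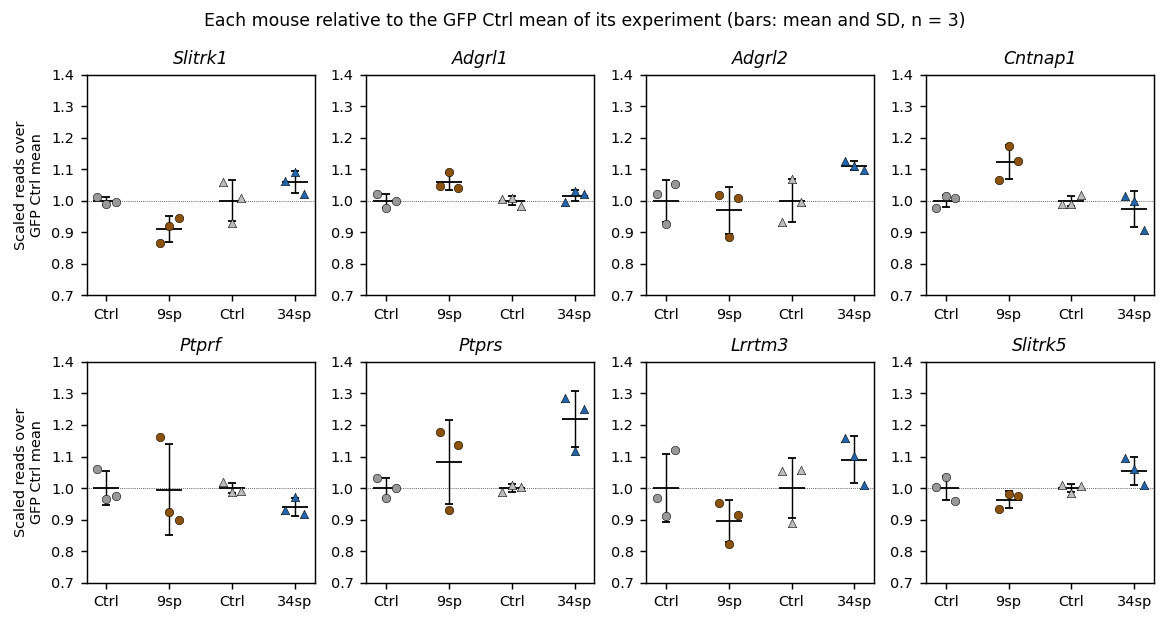
Scaled reads of each mouse divided by the GFP Ctrl mean of its experiment, for the 8 adhesion genes with an unadjusted p under 0.05 in either experiment or in the difference between them. Points are mice, bars show the mean and SD of 3 mice, and the axis runs from 0.7 to 1.4. Cntnap1, Slitrk1 and Adgrl1 separate from GFP Ctrl after miR-9sp, and Ptprs, Adgrl2 and Ptprf after miR-34sp.

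The single RefSeq entries of the neuroligins and neurexins were fitted as deposited. None of the 8 entries tested had an unadjusted p under 0.05 in either experiment, against 4.68% of 13439 entries in the miR-9 experiment and 6.37% of 12787 in the miR-34 experiment, and none passed an adjusted p of 0.05 (0% and 0.0313% of entries). Nlgn1 was counted mainly on NM_138666, with 205, 215 and 217 scaled reads in the GFP Ctrl mice and 198, 240 and 201 after miR-9sp (log2 fold change 0.0004 ± 0.097 SE), and with 164, 158 and 130 against 144, 148 and 160 in the miR-34 experiment (-0.0036 ± 0.11 SE). Its second entry, NM_001163387, had 17.2, 14.9 and 13.7 against 20.5, 20.3 and 20.1 after miR-9sp (0.40 ± 0.23 SE, edgeR adjusted p = 0.97), and 19.1, 17.8 and 10.00 against 15.52, 12.4 and 12.6 after miR-34sp (-0.20 ± 0.31 SE). The groups of this entry did not overlap after miR-9sp and overlapped after miR-34sp. Nlgn2 and Nlgn3 had 1 entry each, NM_198862 and NM_172932, with the values given for the genes.

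All reads of Nrxn2 lay on NM_001205234, and NM_001205235 and NM_020253 had 0 reads in every mouse. Nrxn3 was counted mainly on NM_001198587, at a mean of 567 ± 49.8 scaled reads (SD, n = 3) in the GFP Ctrl mice and 621 ± 109.6 after miR-9sp, and at 415 ± 48.4 against 404 ± 30.3 in the miR-34 experiment. NM_001252074 was at 101.6 ± 14.4 against 96.4 ± 15.8 and at 68.8 ± 10.7 against 59.6 ± 4.74, and NM_172544 at 32.3 ± 4.23 against 36.6 ± 6.70 and at 20.7 ± 7.05 against 20.2 ± 5.68, in the same order. For each Nrxn3 entry the difference between the means was smaller than the larger of the group SDs.

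Seed matches were then set beside the values of the adhesion genes, as a description. After miR-9sp the 13 genes with the miR-9 heptamer had a median log2 fold change of 0.019 (7 positive and 6 negative), and the 27 without it had -0.036. The median of the 13 was the value of Lrrtm1, which turned negative (-0.0031) with scaling by total counts. Medians over all genes with and without a heptamer were not computed. After miR-34sp the 10 tested genes with the miR-34 heptamer had a median of 0.019 (6 positive and 4 negative), and the 29 without it had 0.058. Of the genes with a miR-9 8mer, Lrrtm4 was at -0.19, Cntn2 at -0.11 and Tenm1 at 0.065 after miR-9sp. Of those with a miR-34 8mer, Nlgn2 was at 0.025, Flrt2 at 0.029, Cntn2 at 0.054, Cntnap2 at -0.0006 and Cadm3 at -0.065 after miR-34sp. Each of these 8 values had an unadjusted p above 0.05. Of the genes with an unadjusted p under 0.05, Cntnap1 held the miR-9 heptamer and Ptprs the miR-34 heptamer, and Slitrk1, Adgrl1, Adgrl2 and Ptprf held neither.

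Related synaptic genes were taken from a list of 82, made up of 15 secreted organizers, 37 other synaptic adhesion genes and 30 synaptic scaffolds. After miR-9sp, 0 of 69 tested passed an adjusted p of 0.05, and 4 had a positive value at an unadjusted p under 0.05 (2.47% of all genes), with 0 negative (2.26% of all genes), a share of 4 in 69 that is near the 4.73% of all genes in either direction. They were the postsynaptic scaffold Shank1 (log2 fold change 0.10 ± 0.035 SE), the secreted organizer Cbln4 (0.36 ± 0.13 SE), Adam23 (0.10 ± 0.038 SE), a receptor of LGI proteins, and the scaffold Dlgap3 (0.090 ± 0.040 SE), each with an adjusted p of 0.97. Shank1 had 23524, 22688 and 23177 scaled reads in the GFP Ctrl mice and 25124, 24835 and 24473 after miR-9sp, with no overlap.

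After miR-34sp, 0 of 68 tested passed an adjusted p of 0.05, and 4 were positive (2.71% of all genes) and 1 negative (3.72%) at an unadjusted p under 0.05, or 5 of 68 against 6.43% of all genes. The positive genes were the neurotrophin receptor Ntrk3, which also binds Ptprs (0.16 ± 0.046 SE), the neurexin ligands Nxph4 (0.63 ± 0.24 SE) and Nxph3 (0.27 ± 0.11 SE), and the secreted Lgi1 (0.082 ± 0.034 SE), and the negative gene was Ephb1 (-0.60 ± 0.25 SE). Ntrk3 had 1315, 1332 and 1270 scaled reads in the GFP Ctrl mice and 1532, 1425 and 1424 after miR-34sp, with no overlap, and an adjusted edgeR p of 0.49. Nxph4 and Ephb1 had fewer than 50 scaled reads in every mouse. In the difference between the sponge effects, 3 of 69 had an unadjusted p under 0.05, against 6.1% of all genes. They were Shank1 (0.14 ± 0.049 SE), Dlgap3 (0.14 ± 0.052 SE) and Shank3 (0.15 ± 0.063 SE), with 0 of 69 past an adjusted p of 0.05.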

How the data were processed

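Hippocampal RNA of 12 mice was sequenced as 50 bp single end reads, and mature miRNAs were not measured in these files. The deposited values are raw counts, reads that the authors counted per RefSeq transcript and mouse, beside a transcript length. The submitters' processing notes name STAR and mm10, whereas the methods name mm9. The counts carry no coordinates, so this does not move them. Of the entries, 98.7% were joined to a symbol. The GFP Ctrl mice whose labels name no experiment were assigned to the miR-9 experiment, since the methods give 3 to each. Column labels of the miR-9 experiment contain totRNA.

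Counts per symbol were tested in edgeR 4.0.16 by its quasi-likelihood test (R 4.3.3, TMM, mean scaled count above 10, Benjamini-Hochberg over all genes tested), each experiment alone. Scaled reads are counts divided by the mouse's TMM-scaled total and multiplied by the mean of its experiment. Levels are reads per kilobase of the longest entry and 1000000 counted reads (RPKM). Limits of 3 reads cover counting error only. The labels number animals, so replicates were taken as separate mice. Alternatives were DESeq2 1.42.0, other scalings, no filter, 1 model of 12 mice, the ratio criterion of the methods (1.2) and leaving out each mouse. Members and lists were chosen with earlier results of these data known. Described singly are genes with an unadjusted p under 0.05, Nlgn and Nrxn genes, extremes of level and fold change, and, named after their values were seen, Lrrtm4, Lrrc4, Ptprd, genes with 8mers and low-level genes with 1 entry. The code was tested on simulated data. Python 3.11.15, pandas 2.3.3 and matplotlib 3.10.9 were used.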

Additional observations from a re-analysis of the deposited data

How the results depend on the processing

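The number of adhesion genes past an adjusted p of 0.05 was 0 under every alternative run, and no gene at an unadjusted p under 0.05 changed sign. The number with an unadjusted p under 0.05 was 3 after miR-9sp and became 5 with scaling by total counts. Without the filter on low counts it was 5 of 43 tested, where 407 of 19065 genes were higher and 429 lower. By the criterion of the methods (unpaired test and ratio past 1.2), which 1.44% of all genes met, it was 0. After miR-34sp it was 3 and became 1 by that criterion (Ptprs), which 2% of all genes met. With 1 mouse left out at a time, the numbers ran from 2 to 8 after miR-9sp, from 2 to 5 after miR-34sp and from 3 to 7 for the difference, and from 0 to 1 for single neuroligin and neurexin entries in the miR-9 experiment (1 without GFP-miR-9sp mouse 23). Cntnap1, Slitrk1 and Ptprs kept an unadjusted p under 0.05 in 11 of 11 alternatives, whereas Adgrl1 lost it in 10, Ptprf in 9 and Adgrl2 in 1. Of the differences, Cntnap1 and Slitrk1 kept it in 16 of 16, and Adgrl2 lost it in 8, Lrrtm3 in 6 and Slitrk5 in 6. Scaling by total counts changed the sign of Lrrtm1 and Nlgn3 after miR-9sp and of Cntnap2 after miR-34sp, and gave 309 genes of the table higher and 560 lower in the difference, against 456 and 327. Over all genes, an adjusted p under 0.05 was found for 8 after miR-34sp in edgeR, 36 in DESeq2 and 81 without the filter, and for 0, 2 and 2 after miR-9sp, in that order. The causes of these changes were not tested. No paired analysis was possible because the sponge and GFP Ctrl mice of an experiment share no animal number. For Cntn5, Tenm2, Flrt3 and Slitrk2, which have several RefSeq entries and few reads, the SE of the log2 fold change was 0.18 to 0.33, and small changes in them were not detectable at this depth. The medians over the tested adhesion genes kept their sign in all alternatives, although that after miR-9sp was -0.0032 without GFP Ctrl mouse 8.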

Other observations

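Levels of some adhesion genes also differed between the experiments, and anything that differed between the experiments as a whole cannot be told apart here. Of the 28 genes with 1 RefSeq entry, all 6 mice of the miR-9 experiment were above all 6 of the miR-34 experiment in 9, the reverse held for 1 (Nlgn3) and 18 overlapped. Of the 11163 genes with 1 entry and a mean count above 10, the shares were 13.7%, 10.3% and 76.1%, in that order, and no test was made. The mean level of Lrrtm3 was 13.8 RPKM in the miR-9 experiment and 9.84 in the miR-34 experiment, a ratio of 1.41. That of Adgrl2 was 20.4 and 14.9, a ratio of 1.37. Nrxn2, on its 1 counted entry, was at 16.5 and 11.7, a ratio of 1.41. Adgrl1 was at 118 and 116, and its highest mouse was 1.08 times its lowest over all 12 mice.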
